A study of Mus musculus with 12 samples.

Results

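The genes described here are 38 known targets of the let-7 microRNA (miRNA) family that lie outside its best studied target families (Lin28, Hmga, Igf2bp, E2f, Myc and Ras). They were taken from a list of mouse symbols and matched to array probes through the RefSeq accession that each probe carries. The list was chosen with earlier results of these data known. Of the 38 genes, 37 had a probe, and 36 were bright enough to be tested among 24183 genes or transcripts. Map4k3 had no matching probe, and Plag1 did not pass the filter on dim probes. The 38 comprise 6 transcription factors, 3 protein kinases, 5 enzymes of the ubiquitin and SUMO systems, 4 proteins of cell division and DNA repair, 4 of RNA export and translation, 5 secreted or matrix proteins, 8 membrane, transport or cytoskeletal proteins and 3 enzymes of the Golgi or of metabolism.

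RNA came from DKO172, a mouse cell line that the labels trace to a fallopian tumor in a female animal. Lines of this name come from a mouse model in which Dicer1 is deleted by Cre recombinase driven from the Amhr2 promoter. The labels used here do not state this deletion, and every group would share it. Cells were transfected with 2 µg of a pLD-hygro-EnVM plasmid coding for wild-type DICER1 (WT), DICER1 D1709N, DICER1 G1809R or, as the control, GFP, and 3 arrays were run in each of the 4 groups. Cells were plated at 200000 per well, re-plated after 24 h, selected for 84 h in medium with 300 µg/ml hygromycin, and harvested at 108 h. A total of 100 ng of RNA per sample was labelled with Cy3 for single-colour Agilent arrays. All groups are the same cell line, the labels do not say whether replicates were separate transfections, and p-values may then measure only technical spread between samples. In bulk RNA of this kind, fewer cells of a type and less RNA per cell cannot be told apart.

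DICER1 cuts hairpin precursors into mature miRNAs. Its RNase IIIb domain, which holds the residues changed in D1709N and G1809R, makes the cut that frees the strand on the 5p side, and the RNase IIIa domain makes the cut on the 3p side. The main let-7 strands are 5p miRNAs. They repress messenger RNAs whose 3′ untranslated regions pair with the seed, bases 2 to 8 of the miRNA, and are known for holding back fetal and proliferation genes. The comparisons therefore ask how the levels of let-7 target genes differ between cells given WT and GFP, and between cells given a mutant and WT.

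The let-7 sequences are shown because a shared seed marks the family whose listed targets these 38 genes are. Sequences are RefSeq mature miRNAs on GRCm38.p6, written 5′ to 3′, and the capitals mark bases 2 to 8.
let-7a-5p (chr13:48538239-48538260, minus strand): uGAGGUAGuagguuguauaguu
let-7d-5p (chr13:48536078-48536099, minus strand): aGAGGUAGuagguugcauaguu
let-7g-5p (chr9:106178846-106178867, plus strand): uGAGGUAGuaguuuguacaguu
miR-98-5p (chrX:151913229-151913250, plus strand): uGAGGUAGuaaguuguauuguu
let-7g-3p (chr9:106178902-106178923, plus strand): aCUGUACAggccacugccuugc
let-7j (chr3:140028281-140028304, plus strand): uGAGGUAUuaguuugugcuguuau

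The first 4 sequences share the seed GAGGUAG, whose perfect match in a messenger RNA reads CUACCUC. Among the 1679 mature mouse names in the RefSeq table, 11 carry this seed, and they come from 13 genes. Of the 11 names, 9 are let-7 names and the others are miR-98-5p and miR-1961. None of the 12 names from the 3p side of the family's hairpins carries it, as let-7g-3p shows, and the seed of let-7j ends in another base. The arrays measured messenger RNAs, so the levels of these miRNAs were not measured, and target sites were not analysed here.

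Levels are log2 intensities with 0 set at each array's 75th percentile, so that 1 unit is a 2-fold step. A change is the difference of group means in this unit with its standard error (SE) from limma, and a gene was called where its p-value, adjusted by Benjamini and Hochberg over the 24183 tested, was under 0.05. Between 49.5% and 82.7% of the probes of an array were well above background. The highest share was that of WT replicate 1. Over all probes usable on every array, dim ones included, it correlated with the other WT arrays at 0.961 and 0.958. The replicate pairs of the other groups correlated at 0.962 to 0.992. Slide 1 carried replicate 1 of each group, and slide 2 the remaining 8 arrays. Of the 36 tested genes, 34 were well above background on all 12 arrays. Usp44 fell short on 1 WT and 1 D1709N array and Gdf6 on 1 G1809R array. Of 10 Müllerian and other epithelial markers, 8 passed the filter, Krt8, Krt18, Krt19 and Wt1 among them, as did all 8 mesenchymal markers, including Vim and Cdh2. Pax8 and Foxj1 did not pass. Of 5 endothelial markers, Kdr and Pecam1 passed and Cdh5, Tek and Emcn did not, and of 7 leukocyte markers, Itgam, Csf1r and Cd3e passed, while Ptprc, Cd68 and Lyz2 were among those that did not. The markers that passed were well above background on all 3 GFP arrays. Mean levels in GFP were 4.21 for Kdr, -3.62 for Pecam1, 3.57 for Itgam, 2.16 for Csf1r and -0.16 for Cd3e. The epithelial markers Epcam and Cdh1 passed at dim mean levels of -4.09 and -4.71 in GFP. In D1709N, Epcam was well above background on 2 arrays and Cdh1 on 1. The array's Dicer1 probe read 1.13 ± 0.20 (SD, n = 3) in GFP and 0.27 ± 0.23 (SD, n = 3) in WT. It does not check the labels, since the probed Dicer1 sequence may not be that of the plasmids.

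Cells given wild-type DICER1 had lower levels of 7 of the 36 let-7 target genes than cells given GFP, and none of the 36 was called higher. The 7 genes were Arid3a, Arid3b, Yod1, Ccnj, Map3k1, Igdcc3 and Pbx3, with changes from -1.86 to -0.65. Of all genes tested, 2.95% were called in this comparison, 1.76% lower and 1.19% higher, against 19.4% of the let-7 targets called lower. Here and below, all genes are the 24183 genes or transcripts tested. Of these, 14731 had a RefSeq symbol, as each of the 36 does by the way they were matched. Shares among genes with a symbol, or among genes as bright as the 36, are not given here. The list was chosen with earlier results of these data known, so this and the following contrasts with all genes are no independent test. The median change of the 36 genes was -0.30 and that of all genes 0.04. A change below 0 was measured for 30 of the 36 genes and for 43.3% of all genes. The 3 WT arrays lay below all 3 GFP arrays for 13 of the 36, where 10.2% of all genes did so, and above them for none, where 9.64% of all genes did. The count of 7 fell to 2 without GFP replicate 3 (Arid3a and Yod1) and to 4 without GFP replicate 1 or 2, WT replicate 2 or D1709N replicate 2. It was 0 with arrays scaled to their median, with the mutant arrays left out of the fit, or with slide 2 alone.

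**Figure D1:**
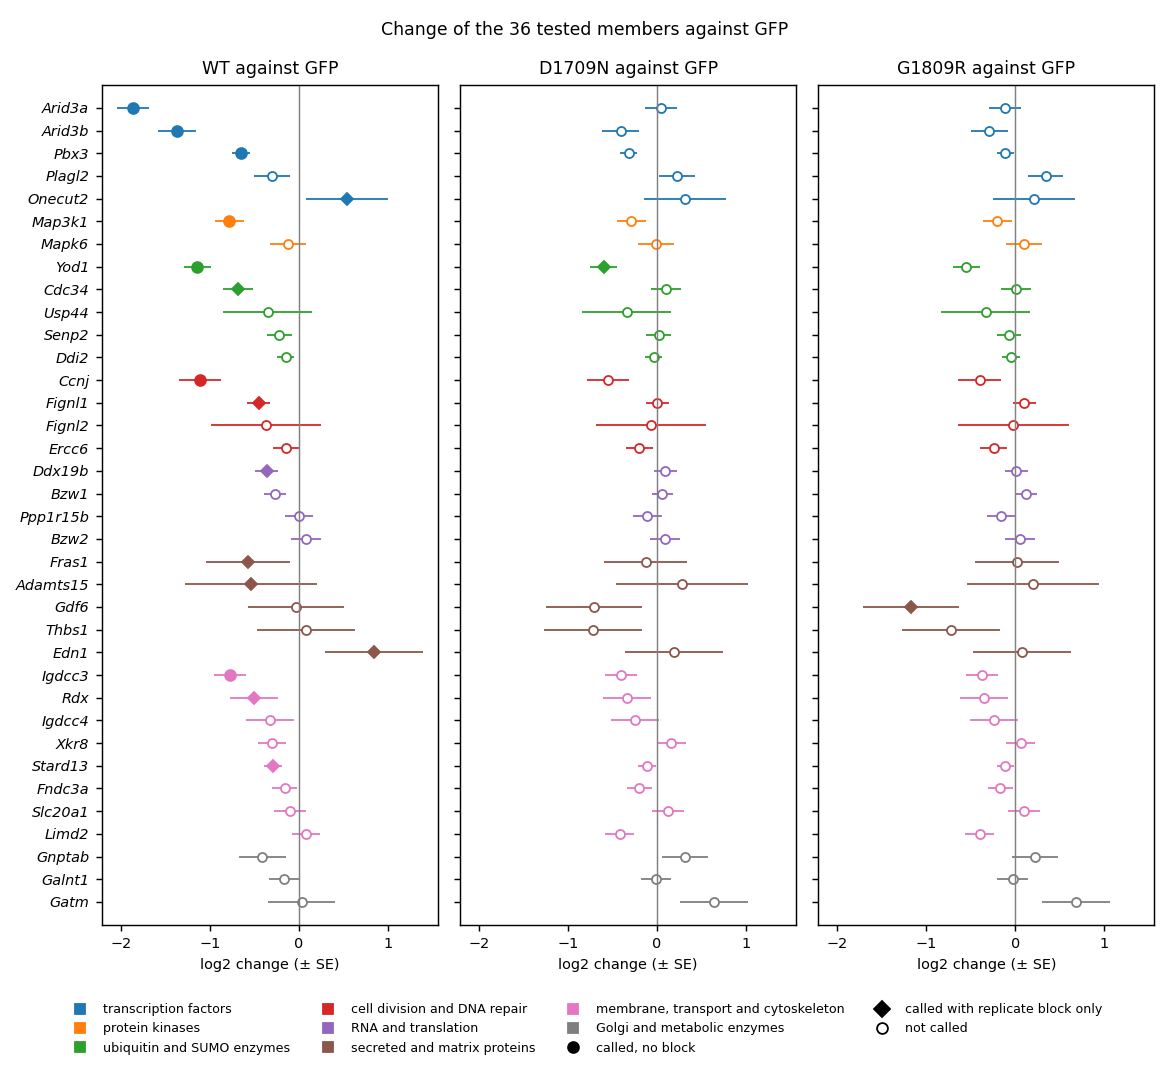
Change of each of the 36 tested let-7 target genes against GFP (x axis, log2 difference of means; bars, SE; 3 arrays per group) for WT, D1709N and G1809R, with genes ordered and coloured by role. Filled circles were called, filled diamonds were called only with the replicate number as a block, and open circles were not called; 7 genes are filled circles with WT and none with either mutant.

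Arrays with the same replicate number deviated together from their group means. The fit with the replicate number as a block is therefore given where it changes a call. With the block, 14 of the 36 genes (38.9%) were called lower and 2 (5.56%) higher with WT than with GFP, where 8.61% and 9.18% of all genes were. The 7 genes named above were among the 14. The others were Cdc34, Fignl1, Ddx19b, Adamts15, Fras1, Rdx and Stard13, and the 2 higher genes were Edn1 and Onecut2.

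The largest fall among the transcription factors was that of Arid3a, which codes for an AT-rich interaction domain protein that binds DNA. Its level was 2.81, 2.57 and 2.43 in GFP replicates 1 to 3, 0.99, 0.42 and 0.83 in WT, 2.66, 2.81 and 2.46 in D1709N and 2.46, 2.70 and 2.29 in G1809R. The WT arrays were low and apart from the other 9, while the GFP and mutant arrays overlapped. Arid3a fell by 1.86 ± 0.18 with WT, a 3.63-fold lower level (adjusted p = 0.00211), and in all 3 pairs of same-numbered arrays. It stayed called whichever array was left out, and a second Arid3a probe gave a change of -2.03.

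Its paralogue Arid3b, a DNA-binding protein of the same family, had levels of -0.29, 0.02 and 0.27 in GFP and -1.17, -1.72 and -1.24 in WT. The levels were -0.41, -0.61 and -0.20 in D1709N and -0.44, -0.43 and -0.01 in G1809R. The WT arrays were again the lowest of the 12, and the mutant arrays reached into the GFP range. Arid3b fell by 1.37 ± 0.21 with WT, 2.59-fold (adjusted p = 0.0107, and 0.0566 without GFP replicate 3). A second, dim probe of the gene gave -0.28.

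Pbx3, a homeodomain partner of HOX proteins, showed little spread within groups. Its level was 3.45, 3.40 and 3.46 in GFP, 2.73, 2.87 and 2.77 in WT, 3.24, 3.06 and 3.07 in D1709N and 3.43, 3.26 and 3.28 in G1809R. The WT arrays were lowest, and the D1709N arrays lay between WT and GFP without touching either. Pbx3 fell by 0.65 ± 0.10 with WT, 1.57-fold (adjusted p = 0.0109, and 0.06 without GFP replicate 3).

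The zinc finger paralogues Plag1 and Plagl2 could not be set side by side, since Plag1 was near background. It was well above background on 1 GFP and 1 WT array and on no mutant array, with levels of -7.47 to -5.80 in GFP and -7.87 to -5.04 in WT. Plagl2 read 0.83, 0.53 and 0.75 in GFP, 0.61, 0.27 and 0.34 in WT, 1.34, 0.75 and 0.69 in D1709N and 1.22, 0.79 and 1.13 in G1809R. The GFP and WT arrays overlapped, and the change of -0.30 ± 0.20 was not called (adjusted p = 0.576), while 2 dimmer probes gave 0.50 and -0.48.

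Onecut2, a factor with a cut domain and a homeodomain, went the other way. Its level was -1.55, -0.88 and -2.08 in GFP and -1.09, -0.28 and -1.50 in WT. The groups overlapped because replicate 2 was high and replicate 3 low in each, but WT exceeded GFP by 0.45, 0.60 and 0.58 within the pairs. The change of 0.54 ± 0.46 was not called without the block (adjusted p = 0.726), and was called with it (SE 0.10, adjusted p = 0.00635).

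**Figure D2:**
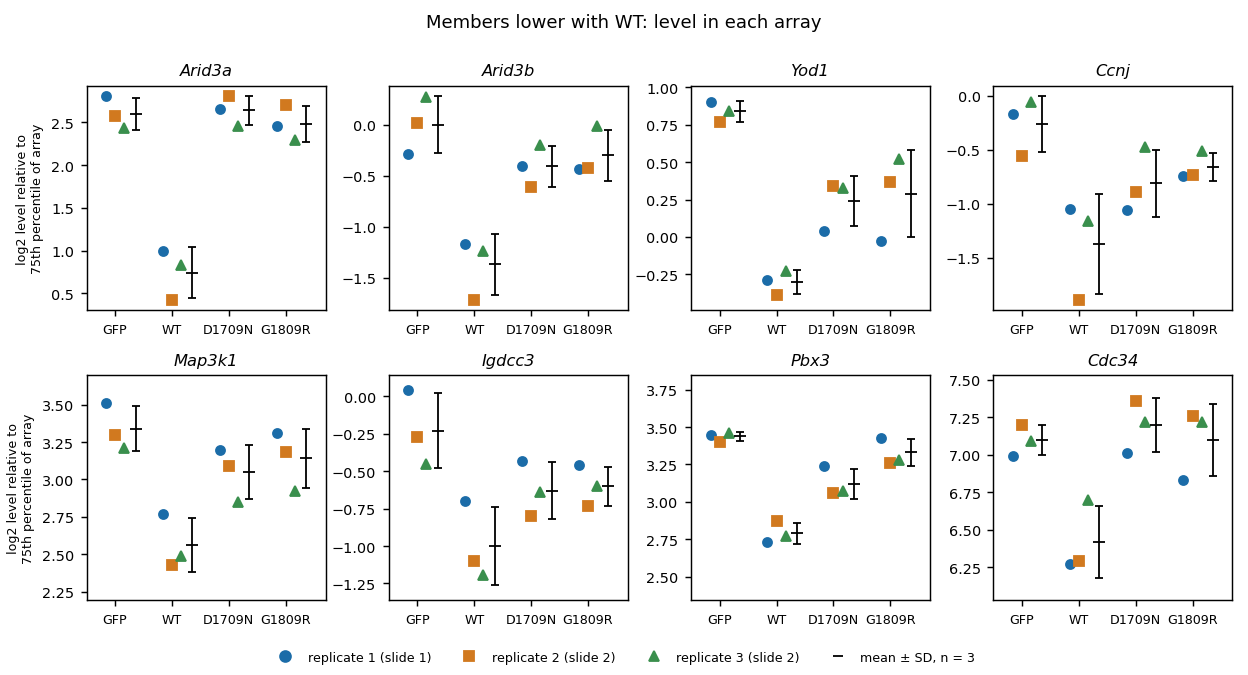
Level on each array (y axis, log2 relative to the array's 75th percentile; a separate scale per gene) of the 7 genes called lower with WT and of Cdc34, which was called lower only with the replicate block. Points are arrays by replicate number, and bars are the mean ± SD of 3 arrays; for Arid3a the WT arrays sit between 0.42 and 0.99 and the other 9 between 2.29 and 2.81.

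Among the kinases, Map3k1 fell and Mapk6 was not called. Map3k1, which signals upstream of the JNK kinases, read 3.51, 3.30 and 3.21 in GFP, 2.77, 2.43 and 2.49 in WT, 3.20, 3.09 and 2.85 in D1709N and 3.31, 3.18 and 2.92 in G1809R. All WT arrays were below all others, and the replicate 1 array was the highest within every group. The change with WT was -0.78 ± 0.16, 1.71-fold (adjusted p = 0.0312), and a second probe gave -0.78. Map3k1 lost its call when any GFP array, WT replicate 2 or 3 or D1709N replicate 2 was left out (adjusted p 0.0518 to 0.118). The atypical MAP kinase Mapk6 changed by -0.12 ± 0.20 (adjusted p = 0.94).

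Of the ubiquitin and SUMO enzymes, the deubiquitinase Yod1 fell most. Its level was 0.90, 0.77 and 0.84 in GFP, -0.29, -0.39 and -0.23 in WT, 0.04, 0.34 and 0.33 in D1709N and -0.03, 0.37 and 0.52 in G1809R. The groups formed steps: GFP was highest, both mutants lay between, and WT was lowest, with no overlap between WT and the other groups or between GFP and the mutants. Yod1 fell by 1.14 ± 0.15 with WT, 2.21-fold (adjusted p = 0.00657), and stayed called whichever array was left out.

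Cdc34, the ubiquitin-conjugating enzyme of SCF ligases, read 6.99, 7.20 and 7.09 in GFP, 6.27, 6.29 and 6.70 in WT, 7.01, 7.36 and 7.22 in D1709N and 6.83, 7.26 and 7.22 in G1809R. The WT arrays were the lowest 3 of the 12, and WT replicate 3 was closest to the rest. The change of -0.68 ± 0.17 missed the threshold without the block (adjusted p = 0.0626) and passed with it (adjusted p = 0.0057). The SUMO protease Senp2, the protease Ddi2 and the deubiquitinase Usp44 had changes of -0.22, -0.15 and -0.35, none of them called.

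In the group of cell division and DNA repair, Ccnj, which codes for cyclin J, had levels of -0.17, -0.56 and -0.06 in GFP and -1.05, -1.89 and -1.16 in WT. It read -1.06, -0.89 and -0.47 in D1709N and -0.74, -0.73 and -0.51 in G1809R. WT and GFP did not overlap, WT replicate 2 was the lowest array, and D1709N replicate 1 lay among the WT arrays. Ccnj fell by 1.11 ± 0.24 with WT, 2.15-fold (adjusted p = 0.0435), and its second probe gave -0.72. The call rests on all 12 arrays, since leaving out any of them gave an adjusted p of 0.0518 to 0.163 for Ccnj. With the block its adjusted p was 0.00398.

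The AAA ATPases Fignl1 and Fignl2, the first an actor in homologous recombination, differed in how well they were measured. Fignl1 read 3.78, 3.53 and 3.83 in GFP, 3.15, 3.21 and 3.41 in WT, 3.67, 3.62 and 3.85 in D1709N and 3.75, 3.77 and 3.93 in G1809R. Its WT arrays were the lowest 3, and the change of -0.45 ± 0.13 was called only with the block (adjusted p = 0.0927 without and 0.006 with). Fignl2 read -2.53, -3.95 and -3.71 in GFP, -2.78, -4.18 and -4.35 in WT, -2.68, -4.02 and -3.69 in D1709N and -2.28, -4.18 and -3.79 in G1809R. Its replicate 1 arrays were high in every group, and its change of -0.37 ± 0.62 had a 95% interval from -1.76 to 1.02. Ercc6, which acts in transcription-coupled repair, changed by -0.14 ± 0.15 (adjusted p = 0.83).

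None of the 4 RNA and translation genes was called with WT without the block. The paralogues Bzw1 and Bzw2 code for regulators of translation start. Bzw1 read 4.82, 4.61 and 4.69 in GFP, 4.41, 4.34 and 4.56 in WT, 4.73, 4.94 and 4.62 in D1709N and 4.86, 4.91 and 4.73 in G1809R. Bzw2 read 3.08, 3.35 and 3.39 in GFP, 3.10, 3.38 and 3.58 in WT, 3.33, 3.34 and 3.41 in D1709N and 3.02, 3.45 and 3.50 in G1809R. The Bzw1 arrays of WT lay just under those of GFP, whereas the Bzw2 arrays overlapped in all groups. The changes were -0.27 ± 0.12 for Bzw1 (adjusted p = 0.316) and 0.08 ± 0.17 for Bzw2 (adjusted p = 0.965), and the difference between these genes was not tested. Ddx19b, an RNA helicase of messenger RNA export, changed by -0.36 ± 0.13 and was called only with the block (adjusted p = 0.00967, and 0.0527 without GFP replicate 3). Ppp1r15b, which directs a phosphatase to a translation initiation factor, had a change of 0.00 ± 0.16.

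The 5 secreted and matrix genes varied widely between replicates, and none was called with WT without the block. Edn1, the precursor of the vasoconstrictor peptide endothelin, read 0.71, 0.97 and 2.35 in GFP and 1.62, 1.97 and 2.95 in WT. Replicate 3 was the highest array of Edn1 in every group, and WT exceeded GFP by 0.91, 1.00 and 0.60 within the pairs. The change of 0.84 ± 0.55 was called only with the block (SE 0.10, adjusted p = 0.00126 with and 0.578 without).

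Adamts15, a secreted metalloprotease of the matrix, read -1.40, -1.66 and -0.04 in GFP and -2.13, -2.22 and -0.37 in WT. Replicate 3 was again far above the other arrays of its group, so the groups overlapped although WT was lower in all 3 pairs. The change of -0.54 was called only with the block (adjusted p = 0.00716 with and 0.903 without). The basement membrane gene Fras1 changed by -0.57 and was called only with the block (adjusted p = 0.0173), and Fras1 lost that call when replicate 1 or 3 of either GFP or WT was left out (highest adjusted p 0.076). Thbs1, which codes for thrombospondin, and the BMP-family ligand Gdf6 had changes of 0.08 ± 0.55 and -0.03 ± 0.54 with WT, neither called in either fit.

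**Figure D3:**
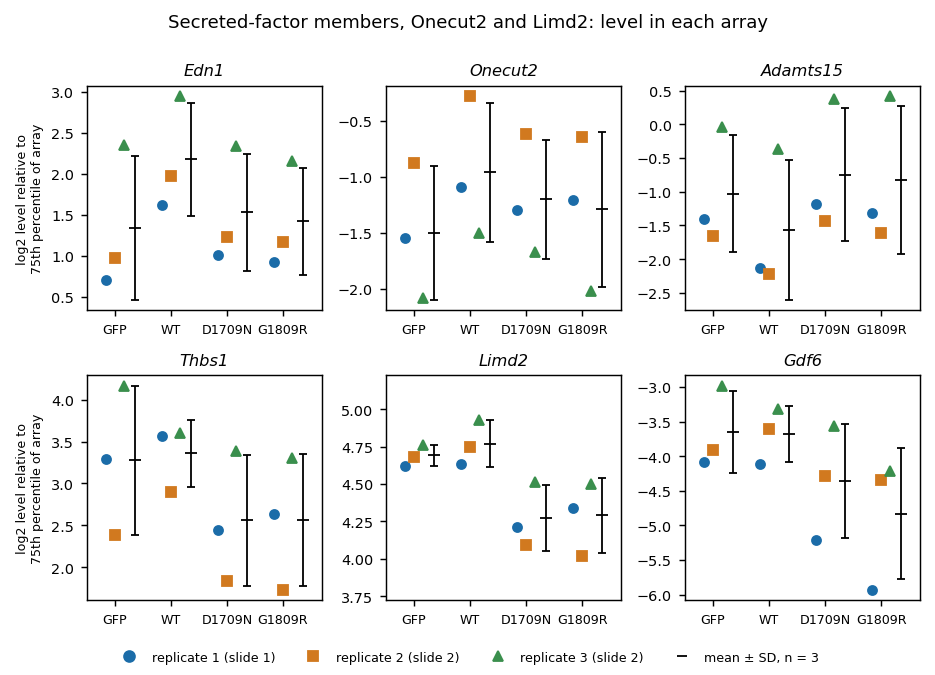
Level on each array (y axis, log2 relative to the array's 75th percentile; a separate scale per gene) of Edn1, Onecut2, Adamts15, Thbs1, Limd2 and Gdf6, with points by replicate number and bars for the mean ± SD of 3 arrays. Replicate 3 is the highest array of Edn1 in every group, at 2.35 in GFP and 2.95 in WT, and the replicates of Onecut2 and Adamts15 keep their order in every group.

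Igdcc3 was the member of the membrane, transport and cytoskeletal group that fell. It codes for a transmembrane protein of the immunoglobulin superfamily, and its level was 0.04, -0.27 and -0.45 in GFP, -0.70, -1.10 and -1.19 in WT, -0.43, -0.80 and -0.64 in D1709N and -0.46, -0.73 and -0.60 in G1809R. WT lay wholly below GFP, the mutant means lay between, and WT replicate 1 overlapped with the mutant arrays. The change was -0.77 ± 0.18, 1.70-fold (adjusted p = 0.0497). For Igdcc3 the adjusted p was 0.0465 without WT replicate 1 and 0.0618 to 0.165 without each of the other 11 arrays in turn, and with the block it was 0.00159.

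The related Igdcc4 was dimmer, at -3.20, -3.66 and -4.02 in GFP and -3.98, -3.96 and -3.89 in WT. It read -3.68, -3.90 and -4.06 in D1709N and -3.28, -4.04 and -4.28 in G1809R. All groups of Igdcc4 overlapped, and its change of -0.32 ± 0.27 was not called in either fit. Rdx, the membrane-to-actin linker radixin, changed by -0.50 ± 0.27 and was called only with the block (adjusted p = 0.0112), and its second probe gave -0.21. Stard13, a GTPase-activating protein, changed by -0.29 ± 0.10 and was called only with the block (adjusted p = 0.0458). The Stard13 call with the block was lost without any of 11 of the 12 arrays, all but WT replicate 3, with an adjusted p of up to 0.172. The phosphate transporter Slc20a1, the scramblase subunit Xkr8, Fndc3a and the LIM protein Limd2 had changes of -0.10, -0.30, -0.16 and 0.08, none of them called in either fit.

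None of the 3 Golgi and metabolic enzymes was called with WT against GFP in either fit. Gnptab, which makes the tag that sends enzymes to lysosomes, changed by -0.41 ± 0.26. Galnt1, which starts O-linked glycosylation, changed by -0.17, and Gatm, an enzyme of creatine synthesis, by 0.03 ± 0.38.

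None of the 36 genes was called between either mutant and GFP without the block. The background was low as well: 0.0496% of all genes were called with D1709N and 0.0124% with G1809R. At an unadjusted limma p under 0.05, 5 of the 36 genes differed with D1709N (Pbx3, Yod1, Ccnj, Igdcc3 and Limd2) and 2 with G1809R (Yod1 and Limd2), all of them lower, where 7.21% and 6.64% of all genes did. The median change of the 36 was -0.05 with D1709N and -0.06 with G1809R, and that of all genes 0.03 and 0.05.

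Yod1 was the gene of the 36 with the smallest p in both mutants without the block, and all 6 mutant arrays lay below the 3 GFP arrays. Its change was -0.60 ± 0.15 with D1709N (adjusted p = 0.303, and 0.0391 with the block) and -0.55 ± 0.15 with G1809R (adjusted p = 0.449, and 0.0531 with the block). With the block, Yod1 was the 1 gene of the 36 (2.78%) called with D1709N, in the lower direction. Of all genes, 2.49% were called lower, which is a similar share. The Yod1 call was kept in 3 of 12 fits that each left out 1 array (adjusted p up to 0.141).

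With G1809R and the block, 1 of the 36 genes (2.78%) was called, also lower, where 1.98% of all genes were, a similar share. This gene was Gdf6. Its level was -4.08, -3.91 and -2.98 in GFP and -5.93, -4.34 and -4.22 in G1809R, with 1 G1809R array not well above background. The groups did not overlap, and the change was -1.17 ± 0.54 (adjusted p = 0.771 without the block and 0.0401 with it). The blocked call was kept in 2 of 12 fits that each left out 1 array (adjusted p up to 0.135). Limd2 read 4.62, 4.68 and 4.76 in GFP, 4.21, 4.09 and 4.51 in D1709N and 4.34, 4.02 and 4.50 in G1809R. All mutant arrays of Limd2 were below GFP, with changes of -0.42 ± 0.16 and -0.40 ± 0.16 that were not called in either fit.

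**Figure D4:**
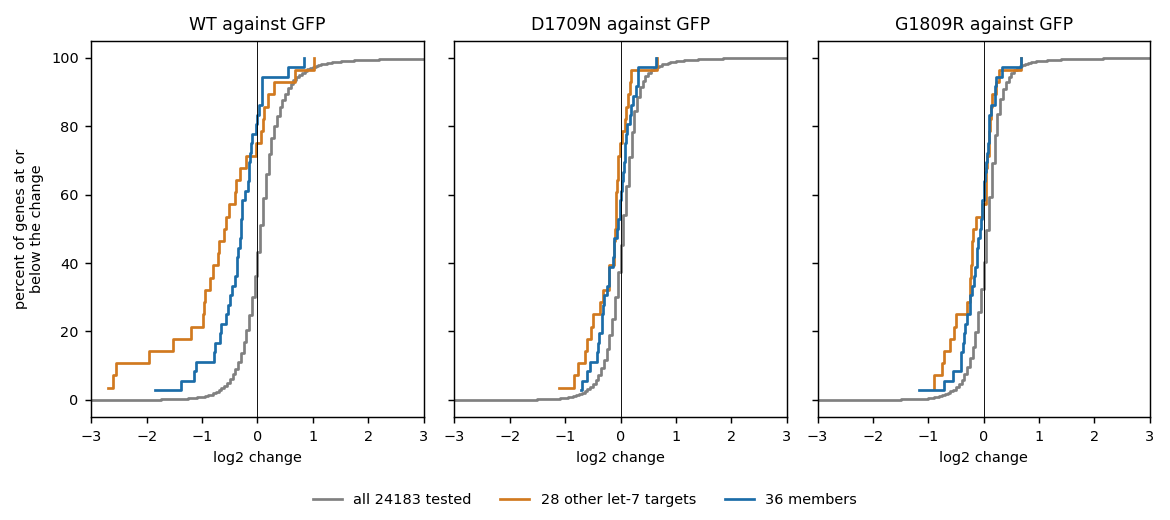
Cumulative share of genes (y axis, percent at or below a change) against the log2 change from GFP (x axis, -3 to 3) for all 24183 tested genes, the 36 let-7 targets described here and 28 other let-7 targets, in each comparison with GFP. With WT the curve of the 36 lies left of that of all genes (medians -0.30 and 0.04), and with D1709N the medians are -0.05 and 0.03.

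Set directly against WT, the mutants had higher levels of a few of these genes. The WT arrays also enter the comparison of WT with GFP, so a gene that is low on those arrays appears in both. Without the block, 1 of the 36 genes was called higher with D1709N (Arid3a) and 3 with G1809R (Arid3a, Arid3b and Pbx3), and none was called lower. The share of all genes called was 1.66% for D1709N and 1.64% for G1809R, with 0.992% and 1.04% called higher and 0.67% and 0.604% called lower. The median difference of the 36 was 0.27 and 0.28, and that of all genes -0.01 and 0.01.

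Arid3a was higher than WT by 1.90 ± 0.18 with D1709N (adjusted p = 0.00276) and by 1.74 ± 0.18 with G1809R (adjusted p = 0.00401), and it kept both calls whichever array was left out. Against GFP the mutants' Arid3a changes were 0.04 ± 0.18 and -0.12 ± 0.18. Arid3b was higher by 0.97 ± 0.21 with D1709N, which missed the threshold without the block (adjusted p = 0.0523, and 0.00435 with it), and by 1.08 ± 0.21 with G1809R (adjusted p = 0.0347). The Arid3b call with G1809R was kept without GFP replicate 1 or 3 and lost without each of the other 10 arrays (adjusted p 0.0502 to 0.119). Pbx3 was higher by 0.33 ± 0.10 with D1709N (adjusted p = 0.147, and 0.03 with the block) and by 0.54 ± 0.10 with G1809R (adjusted p = 0.0286). The Pbx3 call with G1809R was kept without D1709N replicate 1 or 2 or GFP replicate 2 and lost without the other arrays (adjusted p 0.0503 to 0.109).

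With the mutants averaged, 6 of the 36 genes were called higher than WT (16.7%) and none lower, where 3.61% of all genes were called, 2.18% higher and 1.42% lower. Cdc34, Yod1 and Fignl1 joined Arid3a, Arid3b and Pbx3. Cdc34 was higher by 0.73 ± 0.14 (adjusted p = 0.0246), Yod1 by 0.57 ± 0.13 (adjusted p = 0.0465) and Fignl1 by 0.51 ± 0.11 (adjusted p = 0.0345). Yod1 therefore stood above WT and below GFP in the mutants, with no overlap on either side, whereas the mutant arrays of Cdc34 and Fignl1 overlapped with GFP. The count of 6 fell to 1 without WT replicate 2 (Arid3a), to 2 without WT replicate 1 (Arid3a and Arid3b) and to 3 without replicate 2 or 3 of either mutant.

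**Figure D5:**
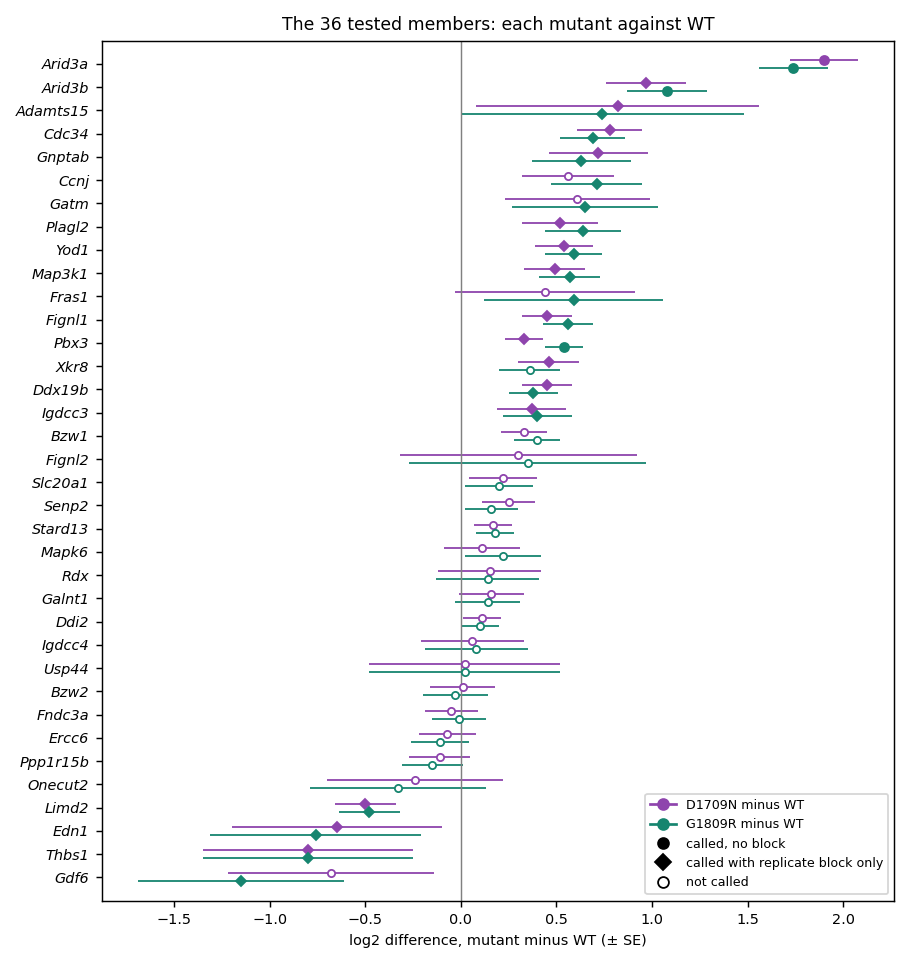
Difference of each mutant from WT (x axis, log2 difference of means; bars, SE; 3 arrays per group) for the 36 tested let-7 target genes, ordered by their mean difference, with D1709N in purple and G1809R in green. Filled circles were called without a block and filled diamonds only with the replicate block; Arid3a lies highest, at 1.90 and 1.74.

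The replicate block widened these lists in both directions. With it, 13 of the 36 genes (36.1%) were called higher and 3 (8.33%) lower with D1709N than with WT. Of all genes, 7.12% and 8.42% were. With G1809R, 15 (41.7%) were higher and 4 (11.1%) lower, where 6.36% and 6.31% of all genes were. In the average of the mutants 17 (47.2%) were higher and 5 (13.9%) lower, where 9.53% and 9.96% of all genes were. The share lower with D1709N was near that of all genes, and those with G1809R and the average rest on 4 and 5 genes. Among the higher genes, Map3k1 differed by 0.49 with D1709N and 0.57 with G1809R (adjusted p = 0.00685 and 0.00391), and Adamts15 by 0.82 and 0.74 (adjusted p = 0.0019 and 0.00295). The lysosomal tagging enzyme Gnptab was higher by 0.72 and 0.63 (adjusted p = 0.0208 and 0.0372), and Plagl2 by 0.52 and 0.64 (adjusted p = 0.0192 and 0.00919). All 4 were named after their values were seen, and Map3k1 and Adamts15 kept these calls whichever array was left out. Gnptab lost its D1709N call without replicate 2 or 3 of D1709N or 1 or 2 of WT (adjusted p up to 0.091) and kept its G1809R call in 6 of 12 such fits (up to 0.144). Plagl2 lost its D1709N call without replicate 1 or 2 of D1709N or 1 or 3 of WT (up to 0.0739).

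With the block, Edn1, Thbs1 and Limd2 were lower in both mutants than in WT, Gdf6 was lower with G1809R, and Gdf6 and Onecut2 were lower with the mean of the mutants. Gdf6 kept its call with G1809R in 8 of 12 fits that each left out 1 array (adjusted p up to 0.0652) and with the mean in 10 (up to 0.0888), and Onecut2 kept its call in 2 (up to 0.156). Edn1 read 1.01, 1.23 and 2.34 in D1709N and 0.93, 1.17 and 2.16 in G1809R, below the WT array of the same number in all 6 pairs. Its differences from WT were -0.65 and -0.76 (adjusted p = 0.00433 and 0.00245 with the block, 0.727 and 0.725 without). Thbs1 read 3.57, 2.90 and 3.60 in WT, 2.44, 1.84 and 3.39 in D1709N and 2.64, 1.73 and 3.31 in G1809R. It was lower by 0.80 in both (adjusted p = 0.0279 and 0.0311 with the block), replicate 3 showed the smallest difference, and each call was kept in 7 of 12 fits that left out 1 array (adjusted p up to 0.0979 and 0.119). Limd2 differed by -0.50 and -0.48 (adjusted p = 0.0146 and 0.0174 with the block, and up to 0.0698 and 0.068 without replicate 2 of WT or of the mutant). The Limd2 arrays of WT lay above all mutant arrays, a second probe gave -0.58 and -0.52 against GFP in the mutants, and another, dimmer probe gave 0.00 and -0.07.

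None of the 36 genes was called by limma between the mutants, with or without the block, and 0% of all genes were. No gene of the 36 reached an unadjusted limma p under 0.05, where 0.269% of all genes did. The differences of D1709N minus G1809R ran from -0.21 for Pbx3 to 0.47 for Gdf6. The 95% interval of the difference lay within ±0.5 for 19 of the 36 genes and within ±1 for 28, so larger differences remained possible for the others.

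Other let-7 targets, on a separate list of 29 genes that holds the best studied families, were measured for comparison. Of 28 tested, 9 were called lower and 1 higher with WT than with GFP (14 and 2 with the block), and the median change was -0.59. These are 32.1% and 3.57% of the 28, where 1.76% and 1.19% of all genes were called. With the block they are 50% and 7.14%, where 8.61% and 9.18% of all genes were called. The RNA-binding proteins Lin28b and Lin28a, which block let-7 maturation, changed by -2.70 ± 0.25 and -2.55 ± 0.28, and the nuclear receptor gene Nr6a1 by -2.61 ± 0.27. These falls were larger in size than that of Arid3a at -1.86, though the difference between the lists was not tested. The 1 gene called higher without the block was the chromatin protein gene Hmga1, at 0.67 ± 0.14 (adjusted p = 0.0377). Against GFP, none of the 28 was called with either mutant without the block, and with it 3 were called lower and 1 higher with each mutant. With the block, 2.49% of all genes were called lower and 1.77% higher with D1709N, and 1.98% and 1.75% with G1809R. Of 15 genes for miRNA processing and silencing, 3 were called lower with WT than with GFP and none higher. With the block 5 were lower and 1 higher, and the shares of all genes are those given above for WT.

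Other gene groups, chosen with earlier results of these data known, moved with the same arrays. Of all genes, 1.76% were lower and 1.19% higher with WT than with GFP, and 8.61% and 9.18% with the block. With the block 2.49% were lower and 1.77% higher with D1709N than with GFP, and 1.98% and 1.75% with G1809R. Of 10 cell cycle genes, 7 were lower with WT than with GFP (8 with the block), none was called with a mutant against GFP in either fit, and their median change with WT was -0.83. The log2 of the summed level of these 10 genes ran from 7.26 to 7.37 in GFP, 6.65 to 6.81 in WT, 7.22 to 7.41 in D1709N and 7.29 to 7.49 in G1809R. Of 10 interferon response genes, 3 were higher with WT than with GFP without the block and 10 with it, and their median change was 3.38. With the mutants none was called against GFP without the block, 3 were higher with D1709N and 9 with G1809R with it, and the median changes were 1.85 and 2.60. Their summed level ran from 2.35 to 5.20 in GFP, 5.56 to 8.03 in WT, 4.79 to 7.13 in D1709N and 5.45 to 7.77 in G1809R. The 5 smooth muscle markers summed to 5.09 to 7.13 in GFP, 6.25 to 7.50 in WT, 4.35 to 6.90 in D1709N and 4.54 to 6.49 in G1809R, with none called without the block. With it, 2 of the 5 were higher with WT than with GFP, and 2 were lower with each mutant than with GFP. Against WT, 4 were lower with each mutant with the block, where 8.42% of all genes were with D1709N and 6.31% with G1809R. The part of these groups in the changes of the let-7 targets was not tested.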

How the data were processed

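Per the file headers, the scanner files of the 12 single-colour arrays come from Agilent Feature Extraction, version 11.0.1.1, and the deposited intensity is background-subtracted and not scaled between arrays. The deposited set of processed values holds log2 values of unknown scaling. The column medians of this deposited log2 set were 9.4 to 9.42, their correlation with the scanner log2 intensity was at least 0.995, and they served as an alternative.

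From the log2 processed intensity of each spot the array's 75th percentile over its 59305 non-control spots was subtracted, and 3671 control spots were left out. Spots of a probe were averaged without outliers. No probe was saturated, and 287 of 55681 probes without a usable spot on some array were dropped. Kept probes were well above background on all 3 arrays of 1 group or more, and the brightest probe stood for its gene. A RefSeq symbol was found for 27235 probes. Limma 3.58.1 in R 4.3.3 (with the data.table package, version 1.17.8) fitted the 12 arrays with the group as factor. The fit was tested on simulated data with independent noise, for WT against GFP without a block. Such data hold no arrays that deviate together, so that feature was not covered. Tests are two-sided. The number of arrays limits the precision.

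The members and lists were chosen with earlier results of these data known. Array values were given by rule for members called against GFP or WT and for paralogue pairs; other members were named after their values were seen. As a check of the replicate numbers, deviations from group means correlated at 0.60 to 0.85 in 18 pairs of same-numbered arrays and -0.67 to 0.20 in 36 other pairs, and 12 of 12 arrays correlated best with their own number. That pairing comes from the data, since the labels do not state what a number marks. Alternatives were the replicate and slide blocks, other background correction, scaling, filter and probe rules, the deposited table, fewer arrays, and the block with each array left out, the last chosen after seeing the data.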

Additional observations from a re-analysis of the deposited data

Results flagged for a closer look

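For 6 genes the change against GFP differed between a mutant, or the mean of the mutants, and WT, by the limma test of that difference itself, which equals the comparison of the mutant with WT. Arid3a differed by 1.90 with D1709N, 1.74 with G1809R and 1.82 with the mean of both (adjusted p = 0.00276, 0.00401 and 0.00095). Arid3b differed by 1.08 with G1809R and 1.02 with the mean (adjusted p = 0.0347 and 0.0152). Pbx3 differed by 0.54 with G1809R and 0.44 with the mean (adjusted p = 0.0286 and 0.0248). With the mean of the mutants, Cdc34 differed by 0.73 (adjusted p = 0.0246), Yod1 by 0.57 (adjusted p = 0.0465) and Fignl1 by 0.51 (adjusted p = 0.0345). The mutant was above WT in all 3 same-numbered pairs for each of these 10 differences. In fits that each left out 1 array, the Arid3a differences were called in all 12. The differences with G1809R were called in 2 of 12 for Arid3b and 3 for Pbx3. The mean differences were called in 11 of 12 for Arid3b, 8 for Pbx3, 6 for Cdc34 and 2 each for Yod1 and Fignl1.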

How the results depend on the processing

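None of the 17 calls changed direction under the other settings fixed with the design, under which 208 of 357 values kept the call and 149 lost it; the cause was not tested. The number of the 36 genes called with WT against GFP was 7. It was 16 with the replicate block, 12 with the slide as a block, 3 without a filter on dim probes, and 0 with array-median scaling, with only the compared groups in the fit or on slide 2 alone. For D1709N against WT (1 call) these settings gave 16, 8, 1, 0, 0 and 0, normexp with quantile normalization 2 and the deposited values 3. For G1809R against WT (3 calls) they gave 19, 11, 1, 0, 0 and 0. For the mean of the mutants (6 calls) they gave 22, 14, 2, 1, 2 and 1. Against GFP, D1709N and G1809R each had 1 call with the replicate block and 0 otherwise, and no setting gave a call between the mutants. The share of all genes called moved with the setting too. For WT against GFP it was 1.76% lower and 1.19% higher without a block, and 8.61% and 9.18% with the replicate block. Shares under the other settings are not given here, so those counts are no result about the 36 genes alone. The replicate block ended none of the 17 calls. Leaving out each array gave 2 to 6 calls for WT against GFP (2 without GFP replicate 3), 1 to 2 for each mutant against WT and 1 to 5 for their mean; with the block these were 13 to 17, 8 to 17, 11 to 20 and 14 to 22, and 0 to 2 for each mutant against GFP. Array-median scaling moved the median of all genes to -0.24 for WT against GFP, 0.22 and 0.25 for D1709N and G1809R against WT and 0.23 for their mean, while that of the 36 was -0.58, 0.50, 0.53 and 0.50. Slide 1 holds 1 array per group and allows no test. Genes near background, such as Plag1, Usp44 and Gdf6, are limited by their signal.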
